A study of Caenorhabditis elegans with 13 samples.

Results

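Lysozymes, saposin-like proteins and antimicrobial peptides are the secreted effectors with which *C. elegans* breaks down or kills bacteria and fungi. The 92 genes described here were chosen by name from the 46170 genes of the deposited expression table, as those whose public name is *lys*, *ilys*, *spp*, *abf*, *cnc*, *fip* or *fipr* followed by a number. The rule uses no measured value, but the gene set was chosen with earlier results of these data known. They comprise 10 *lys* and 6 *ilys* genes (lysozymes), 23 *spp* genes (saposin-like proteins), 6 *abf* genes (antibacterial factors), 11 *cnc* genes (caenacins), 7 *fip* genes (fungus-induced proteins) and 29 *fipr* genes (fungus-induced protein related). All 92 were found under the same symbol in the WBcel235 annotation and all 92 are protein coding.

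Worms live on bacteria, and the same enzymes serve digestion and defence. Lysozymes cut the peptidoglycan of the bacterial cell wall, and *C. elegans* has a protist-like set (*lys*) and an invertebrate-type set (*ilys*). Saposin-like proteins of the caenopore type open pores in bacterial membranes and act mostly in the gut lumen. The *abf* genes encode defensin-like peptides, while caenacins and fungus-induced peptides are small and in many cases rich in glycine, and several are made by the epidermis on wounding or on infection by the fungus *Drechmeria coniospora*. p38 MAP kinase signalling, DBL-1/TGF-beta signalling and GATA factors such as ELT-2 are known regulators of these genes.

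mRNA-seq was performed on whole L1 hermaphrodites collected after 3 hours of feeding on OP50 bacteria. The groups were wild type N2 on control vector RNAi (3 libraries), N2 on *dpy-27(RNAi)* (4), strain RB2301, with the deletion allele *cec-4(ok3124)* and fed vector bacteria (3), and strain EKM99, a double mutant of *met-2(n4256)* and *set-25(n5021)*, also on vector (3). DPY-27 is a condensin subunit of the dosage compensation complex, and its RNAi conditions were mild. CEC-4 is a chromodomain protein that anchors methylated H3K9 at the nuclear lamina, and the enzymes MET-2 and SET-25 place that methyl mark. Each mutant was represented by a single strain, and all groups came from whole larvae grown on bacteria. The wild type vector group is the control of all 3 comparisons, so they share its libraries.

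The deposited values are the authors' mean FPKM of each group (fragments per kilobase of transcript, scaled to the mapped fragments of the library). There is 1 value per gene and group, so no spread between libraries, confidence interval or test stands behind any difference below, and the number of reads behind a value is unknown. Differences are given as log2 ratios of (FPKM + 0.5), which understate the change of genes near 0, and "past 2-fold" means a log2 ratio beyond 1 in either direction. Over the 16438 genes with a mean of the 4 groups above 1 FPKM, the median log2 ratio to the control was 0.04 in *dpy-27(RNAi)*, 0.11 in the *cec-4* mutant and 0.052 in the *met-2 set-25* mutant. As a check of the labels, *cec-4* mRNA went from 18.2 to 7.02 FPKM in its mutant, *set-25* from 8.93 to 4.15 and *met-2* from 17.6 to 13.7, but *dpy-27* was at 32.3 FPKM in the control and 31.6 FPKM in the group labelled *dpy-27(RNAi)*. Genes on X had a median of 0.16 there and those on autosomes one of 0.019. No check of the label came from the targeted mRNA, and values given for *dpy-27(RNAi)* are those of the group so labelled. The 6 vitellogenin genes, made by the adult intestine, summed to between 0.327 and 0.557 FPKM in every group.

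Of the 92 genes, 67 had a mean of the 4 groups above 1 FPKM and 25 did not. All 10 *lys* genes passed, as did 4 of 6 *ilys*, 17 of 23 *spp*, 5 of 6 *abf*, 8 of 11 *cnc*, 5 of 7 *fip* and 18 of 29 *fipr* genes. The 6 genes listed at 0 in all 4 groups were *ilys-1* and the peptide genes *fipr-12*, *fipr-14*, *fipr-19*, *fipr-25* and *fipr-28*. *spp-12*, which encodes a pore-forming caenopore, stood at 0.276 FPKM in the control and reached at most 0.478 FPKM. Of the 67 genes, 56 were above 1 FPKM in each group and 11 were not, so these 11 passed through the groups in which they were high.

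Saposin-like genes carried most of the signal. *spp-14* was at 6940.4 FPKM in the control, 6423 in *dpy-27(RNAi)*, 5711 in the *cec-4* mutant and 4667 in the *met-2 set-25* mutant, and it ranked 16 among all genes by the mean of the 4 groups. *spp-5*, which encodes the caenopore-5 peptide that permeabilizes bacterial membranes, followed at 2865 FPKM in the control, 2243 in *dpy-27(RNAi)*, 1978 in the *cec-4* mutant and 1785 in the *met-2 set-25* mutant. These genes made up 62.6% of the summed FPKM of the 92 genes in the control. The next were *ilys-5* (555 FPKM over the 4 groups), *lys-1* (467), *spp-3* (405) and *fipr-21* (290.1). At the other end, the median *fipr* gene that passed had a mean of 4.29 FPKM, against 148 FPKM for the median *spp* gene and 39.2 FPKM for the median *lys* gene.

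The summed FPKM of the 92 genes was 15652 in the control, 14002 in *dpy-27(RNAi)*, 12823 in the *cec-4* mutant and 10008 in the *met-2 set-25* mutant. As a share of the summed FPKM of all genes this was 1.28%, 1.16%, 1.14% and 0.934% in the same order. Without *spp-14* and *spp-5* the shares were 0.477%, 0.441%, 0.455% and 0.332%, so *met-2 set-25* stayed the lowest group and the other groups lay closer together. In bulk RNA of whole larvae, a smaller gut or epidermis relative to the body and less RNA per cell cannot be told apart.

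**Figure D1:**
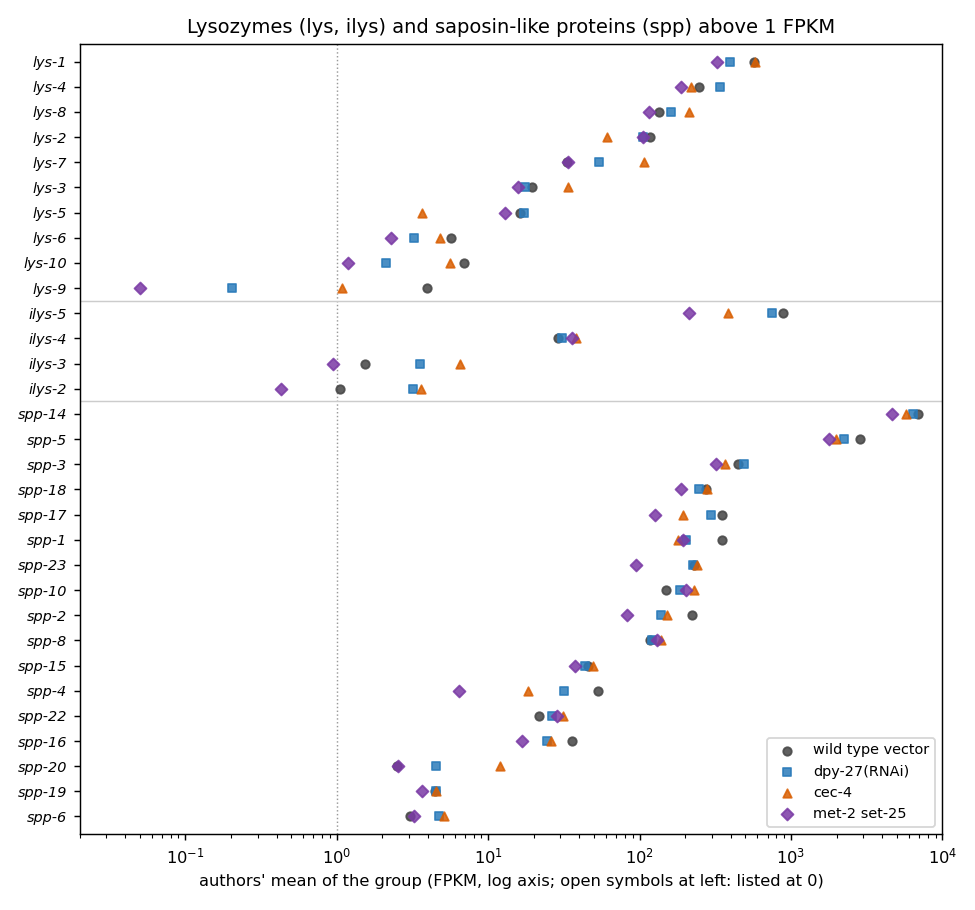
Mean FPKM of each group (x axis, log scale) for the 31 *lys*, *ilys* and *spp* genes above 1 FPKM, ordered by level within a family, with 1 symbol per group and no error bars because the values are group means. *spp-14* and *spp-5* sit to the right of the rest, and the diamonds of *met-2 set-25* lie left of the control circles for *ilys-5*, *spp-4*, *lys-9* and *lys-10*.

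The members varied more between groups than genes at large. The log2 range over the 4 groups had a median of 1.16 in the 67 members that passed and 0.65 in all 16438 genes. Against the control, 4 of the 67 members were higher past 2-fold in the group labelled *dpy-27(RNAi)* (5.97%, against 5.69% of all genes) and 3 were lower (4.48%, against 3.74%). In *cec-4*, 19 members were higher (28.4%, against 9.01% of all genes) and 4 lower (5.97%, against 4.85%). In *met-2 set-25*, 6 members were higher (8.96%, against 9.86%) and 17 lower (25.4%, against 6.81%). These counts include *fipr-16* on the higher side in *cec-4* and *fipr-15* on the lower side in *met-2 set-25*, each of which was listed at 0 in a group of its comparison. The lower side of all 3 comparisons includes *lys-9*, whose mean was above 1 FPKM only through the control. Against all genes at the 2-fold bar, the members' shares were close to the background in the group labelled *dpy-27(RNAi)*. They were above it on the higher side in *cec-4* and on the lower side in *met-2 set-25*. With no filter on low values, 4 of the 92 members were higher and 3 lower in the group labelled *dpy-27(RNAi)*. Of all 46170 genes, 3.11% were higher and 1.95% lower there. On the same basis, 21 members were higher and 6 lower in *cec-4*, beside 4.31% and 2.46% of all genes. In *met-2 set-25*, 7 members were higher and 21 lower, beside 4.56% and 3.25% of all genes.

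The background includes noncoding genes, whereas the members are protein coding. Among 13183 protein-coding genes above 1 FPKM, 5.26% were higher and 2.73% lower past 2-fold in *cec-4*, 5.53% higher and 4.56% lower in *met-2 set-25*, and 2.42% higher and 1.46% lower in the group labelled *dpy-27(RNAi)*. Against protein-coding genes, the members' shares of 5.97% higher and 4.48% lower in that group, which rest on 4 and 3 genes, were thus above the background. Over the 67 members, the middle log2 ratio was 0.011 in the group labelled *dpy-27(RNAi)*, 0.40 in the *cec-4* mutant and -0.32 in the *met-2 set-25* mutant, beside the medians of all genes given above. The median in *cec-4* rests on low genes: over the 44 members with a mean above 5 FPKM it was 0.049, against 0.060 for all genes above 5 FPKM. At a lower bar of 1.5-fold, 12 members were higher in the group labelled *dpy-27(RNAi)* (17.9%, against 12.5% of all genes) and 11 lower (16.4%, against 7.82%). In *cec-4*, 28 were higher (41.8%, against 20.1%) and 10 lower (14.9%, against 10.9%). In *met-2 set-25*, 10 were higher (14.9%, against 19.9%) and 27 lower (40.3%, against 15.4%).

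The families did not share 1 direction. In *cec-4* the family medians ran from -0.19 for *lys* and 0.019 for *spp* through 0.41 for *fipr*, 0.72 for *abf*, 0.84 for *fip* and 0.90 for *ilys* to 1.32 for *cnc*. In *met-2 set-25* the medians were -0.66 for *fipr*, -0.61 for *ilys*, -0.53 for *spp* and -0.36 for *lys*, and they were positive for *abf* (0.25), *cnc* (0.27) and *fip* (0.66). In the group labelled *dpy-27(RNAi)* they stayed between -0.20 for *fipr* and 0.55 for *abf*. The median of *spp* in *cec-4*, and that of all members in the group labelled *dpy-27(RNAi)*, were above 0 but below the median of all genes, so their sign turned when ratios were centred on it.

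**Figure D2:**
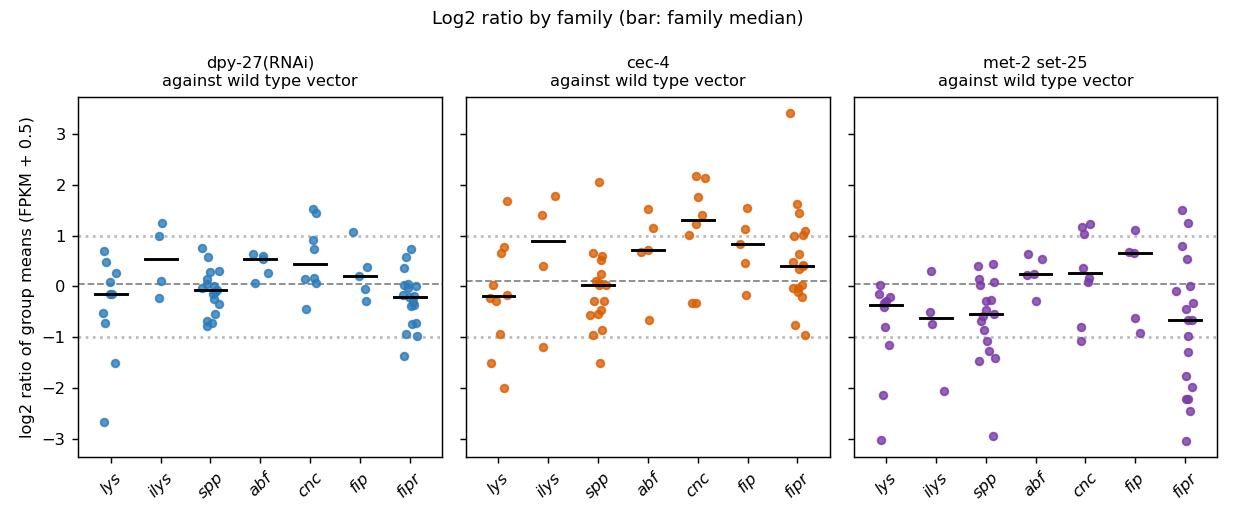
Log2 ratio of group means (FPKM + 0.5) to wild type vector for the 67 members above 1 FPKM, by family and comparison, with 1 point per gene, a black bar at the family median, a dashed line at the median of all genes and dotted lines at 2-fold. Caenacins stand highest in *cec-4* (median 1.32), and *lys*, *fipr*, *ilys* and *spp* genes lie mostly below the control in *met-2 set-25*.

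Of the 10 *lys* genes, 1 was higher and 2 were lower past 2-fold in *cec-4*, 3 were lower in *met-2 set-25* and 2 were lower in the group labelled *dpy-27(RNAi)*. Over all genes, 9.01% were higher and 4.85% lower in *cec-4*. The shares lower were 6.81% in *met-2 set-25* and 3.74% in the group labelled *dpy-27(RNAi)*. *lys-7*, a lysozyme known as a target of the insulin-regulated factor DAF-16, was at 32.9 FPKM in the control, 54.1 in *dpy-27(RNAi)*, 107 in the *cec-4* mutant and 33.7 in the *met-2 set-25* mutant. Its level in *cec-4* was thus the highest, with a log2 ratio of 1.68 to the control, whereas control and *met-2 set-25* were nearly level. The gene lies on chromosome V from 3481432 to 3482600.

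*lys-5* went the other way in *cec-4*. It was at 16.2 FPKM in the control, 17.1 in *dpy-27(RNAi)*, 3.67 in the *cec-4* mutant and 12.9 in the *met-2 set-25* mutant, a log2 ratio of -2.0 in *cec-4* against 0.079 and -0.32 in the other comparisons. It is the middle gene of a row on chromosome IV, and its neighbours did not do the same. *lys-4* was at 245 FPKM in the control, 341 in *dpy-27(RNAi)*, 219 in the *cec-4* mutant and 187 in the *met-2 set-25* mutant. *lys-6* was at 5.72 FPKM in the control, 3.26 in *dpy-27(RNAi)*, 4.81 in the *cec-4* mutant and 2.28 in the *met-2 set-25* mutant. *lys-6* was lowest in *met-2 set-25*, by a log2 ratio of -1.16.

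*lys-1*, the most abundant of the family and an intestinal lysozyme, was at 567 FPKM in the control, 397 in *dpy-27(RNAi)*, 580.1 in the *cec-4* mutant and 326 in the *met-2 set-25* mutant. It was close to the control in *cec-4* and lower by less than 2-fold in the other groups. The genes beside it on chromosome V split again in *cec-4*: *lys-2* had a log2 ratio of -0.94 and *lys-3* of 0.79.

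The largest differences were in the least abundant lysozymes. *lys-9* was at 3.96 FPKM in the control, 0.202 in *dpy-27(RNAi)*, 1.07 in the *cec-4* mutant and 0.0502 in the *met-2 set-25* mutant. *lys-10* was at 6.94 FPKM in the control, 2.1 in *dpy-27(RNAi)*, 5.58 in the *cec-4* mutant and 1.19 in the *met-2 set-25* mutant. The log2 ratios of *lys-9* were -2.67 in the group labelled *dpy-27(RNAi)*, -1.5 in the *cec-4* mutant and -3.02 in the *met-2 set-25* mutant, and those of *lys-10* were -1.51, -0.29 and -2.13. For both genes the control held the highest mean and *met-2 set-25* the lowest. *lys-9* was above 1 FPKM in only 2 groups, the control and *cec-4*. Its mean of the 4 groups, 1.32 FPKM, passed 1 FPKM only through the control. The control is the base of all 3 comparisons, so the filter favoured lower calls for this gene.

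*ilys-5* (X, 6533490 to 6536840) was the third most abundant member and differed past 2-fold in both mutants. It was at 878 FPKM in the control, 746 in *dpy-27(RNAi)*, 383 in the *cec-4* mutant and 211 in the *met-2 set-25* mutant, so the level in *met-2 set-25* was lower by a log2 ratio of -2.05 and that in *cec-4* by -1.2. *ilys-3*, which encodes a lysozyme that breaks down food bacteria in the digestive tract, was at 1.55 FPKM in the control, 3.56 in *dpy-27(RNAi)*, 6.51 in the *cec-4* mutant and 0.949 in the *met-2 set-25* mutant. *ilys-2*, its neighbour on chromosome IV, was at 1.04 FPKM in the control, 3.18 in *dpy-27(RNAi)*, 3.6 in the *cec-4* mutant and 0.43 in the *met-2 set-25* mutant. Both were highest in the *cec-4* mutant and lowest in the *met-2 set-25* mutant, in the opposite order to *ilys-5* for *cec-4* against the control. The third gene of that row, *ilys-1*, was listed at 0 throughout. *ilys-4*, at 28.7 to 38 FPKM, differed by less than 1.5-fold between groups.

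Of the 17 *spp* genes that passed, 5 were lower past 2-fold in *met-2 set-25* and none was higher, beside 6.81% and 9.86% of all genes. In *cec-4*, 1 was lower and 1 higher, beside 4.85% and 9.01% of all genes. In the group labelled *dpy-27(RNAi)* none passed 2-fold in either direction. *spp-4* (X, 7318239 to 7318756) showed the widest range: it was at 52.9 FPKM in the control, 31.7 in *dpy-27(RNAi)*, 18.2 in the *cec-4* mutant and 6.43 in the *met-2 set-25* mutant. The log2 ratios were -0.73, -1.51 and -2.95 in that order of groups after the control. *spp-2*, in the same cluster on X, was at 222 FPKM in the control, 139 in *dpy-27(RNAi)*, 151 in the *cec-4* mutant and 82.8 in the *met-2 set-25* mutant, with its lowest level also in *met-2 set-25*.

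The neighbours *spp-17* and *spp-23* on chromosome I were likewise lowest in *met-2 set-25*. *spp-17* was at 350.3 FPKM in the control, 297 in *dpy-27(RNAi)*, 193 in the *cec-4* mutant and 126 in the *met-2 set-25* mutant. *spp-23* was at 229.5 FPKM in the control, 224 in *dpy-27(RNAi)*, 239.9 in the *cec-4* mutant and 94.6 in the *met-2 set-25* mutant. In *cec-4* they differed from each other, with log2 ratios of -0.86 and 0.064. The fifth gene lower in *met-2 set-25* was *spp-16* (log2 ratio -1.07), of whose 596 exon bases 170 overlap exons of *F32D8.7* on the other strand. The libraries did not keep strand, so reads in that stretch cannot be told apart.

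Differences of *spp-1*, *spp-3*, *spp-5*, *spp-14* and *spp-18* stayed under 2-fold in every comparison. *spp-1*, which encodes a caenopore and is a known DAF-16 target, was at 347 FPKM in the control, 202 in *dpy-27(RNAi)*, 179.7 in the *cec-4* mutant and 193 in the *met-2 set-25* mutant, below the control in the 3 other groups with log2 ratios of -0.78, -0.95 and -0.85. *spp-5* and *spp-14* had log2 ratios of -0.68 and -0.57 in *met-2 set-25* and -0.53 and -0.28 in *cec-4*. *spp-3* had -0.47 and -0.29, and *spp-18* had -0.53 and 0.026.

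*spp-20* (V, 6557615 to 6558203) was the exception on the higher side, at 2.48 FPKM in the control, 4.51 in *dpy-27(RNAi)*, 11.9 in the *cec-4* mutant and 2.53 in the *met-2 set-25* mutant. Only *cec-4* stood apart past 2-fold, with a log2 ratio of 2.05, and the adjacent *spp-19* had 0.019 in the same group. *spp-10*, related to the mammalian lysosomal precursor prosaposin, was at 150.4 FPKM in the control and 229.6 FPKM in *cec-4*, a difference under 2-fold.

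The *abf* genes were low except for the X-linked neighbours *abf-5* and *abf-6*. *abf-6* was at 23.4 FPKM in the control, 36.6 in *dpy-27(RNAi)*, 39 in the *cec-4* mutant and 19.2 in the *met-2 set-25* mutant. *abf-5* was at 17.1 FPKM in the control, 25.3 in *dpy-27(RNAi)*, 27.7 in the *cec-4* mutant and 20.2 in the *met-2 set-25* mutant. Both had their highest levels in *cec-4* and the group labelled *dpy-27(RNAi)* without passing 2-fold. *abf-4* was at 1.45 FPKM in the control, 1.84 in *dpy-27(RNAi)*, 5.13 in the *cec-4* mutant and 2.55 in the *met-2 set-25* mutant, a log2 ratio of 1.53 in *cec-4*. *abf-2*, a defensin-like peptide made in the pharynx, was past 2-fold in *cec-4* as well (log2 ratio 1.16), whereas its neighbour *abf-1* had -0.66.

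Caenacins were the family with the most members higher in *cec-4*, 6 of the 8 that passed. Over all genes, 9.01% were higher there. *cnc-4* (V, 1447195 to 1447707) was at 20.4 FPKM in the control, 34.4 in *dpy-27(RNAi)*, 69.9 in the *cec-4* mutant and 42.2 in the *met-2 set-25* mutant. Its level was highest in *cec-4*, intermediate in *met-2 set-25* and the group labelled *dpy-27(RNAi)*, and lowest in the control. *cnc-11*, in the same cluster, was at 20.7 FPKM in the control, 21.8 in *dpy-27(RNAi)*, 55.8 in the *cec-4* mutant and 23.4 in the *met-2 set-25* mutant, and there *cec-4* alone stood above the other 3 groups. *cnc-2*, an epidermal peptide gene that needs DBL-1 signalling for its induction by fungus, was at 3.61 FPKM in the control, 7.29 in *dpy-27(RNAi)*, 9.11 in the *cec-4* mutant and 4.77 in the *met-2 set-25* mutant.

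The caenacins outside the cluster included the steepest. *cnc-6* (III, 1763522 to 1764902) was at 2.42 FPKM in the control, 7.86 in *dpy-27(RNAi)*, 12.7 in the *cec-4* mutant and 6.08 in the *met-2 set-25* mutant. *cnc-7* (V, 20394073 to 20394735) was at 0.492 FPKM in the control, 2.2 in *dpy-27(RNAi)*, 3.87 in the *cec-4* mutant and 1.84 in the *met-2 set-25* mutant. Their log2 ratios were 1.52 and 1.45 in the group labelled *dpy-27(RNAi)*, 2.18 and 2.14 in the *cec-4* mutant, and 1.17 and 1.24 in *met-2 set-25*. *cnc-10* was at 95.1 FPKM in the control, 106 in *dpy-27(RNAi)*, 192 in the *cec-4* mutant and 101 in the *met-2 set-25* mutant, with a log2 ratio of 1.01 in *cec-4*.

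2 caenacins did not join the others. *cnc-3* was at 36.3 FPKM in the control, 40.2 in *dpy-27(RNAi)*, 28.9 in the *cec-4* mutant and 20.5 in the *met-2 set-25* mutant. The X-linked *cnc-8*, the most abundant of the family, was at 296 FPKM in the control, 217 in *dpy-27(RNAi)*, 236 in the *cec-4* mutant and 139.9 in the *met-2 set-25* mutant. Both were lowest in *met-2 set-25*, *cnc-8* with a log2 ratio of -1.08 to the control. *cnc-1*, *cnc-5* and *cnc-9* did not pass 1 FPKM.

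**Figure D3:**
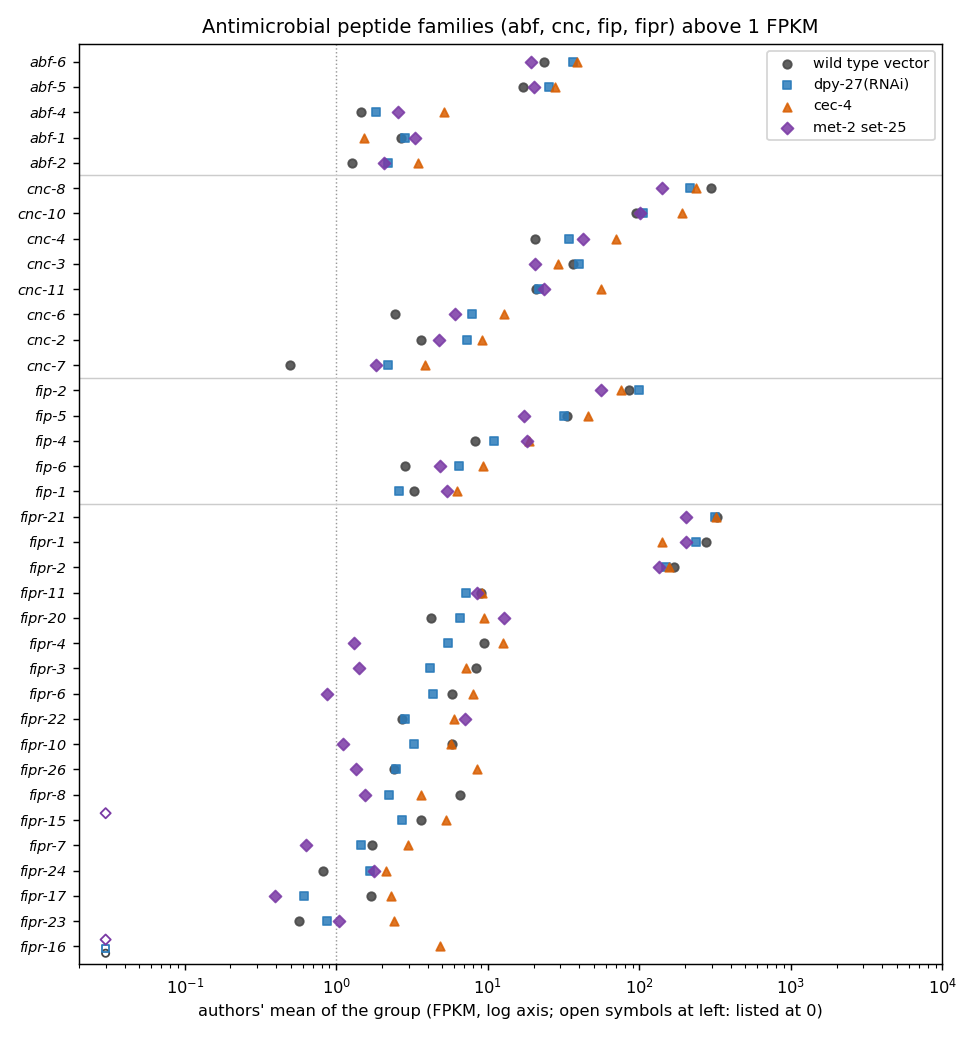
Mean FPKM of each group (x axis, log scale) for the 36 *abf*, *cnc*, *fip* and *fipr* genes above 1 FPKM, with 1 symbol per group, no error bars, and open symbols at the left edge for values listed at 0. Triangles (*cec-4*) lie right of the control circles for *cnc-4*, *cnc-6*, *cnc-7*, *cnc-10* and *cnc-11*, and diamonds (*met-2 set-25*) lie to the left for *fipr-3*, *fipr-4*, *fipr-6*, *fipr-8* and *fipr-10*.

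*fip-6* was at 2.83 FPKM in the control, 6.49 in *dpy-27(RNAi)*, 9.27 in the *cec-4* mutant and 4.83 in the *met-2 set-25* mutant, past 2-fold in *cec-4* and the group labelled *dpy-27(RNAi)*. *fip-2*, the most abundant of the family, was at 85.9 FPKM in the control, 99.1 in *dpy-27(RNAi)*, 76.1 in the *cec-4* mutant and 55.4 in the *met-2 set-25* mutant, with no difference past 2-fold. *fip-4* was higher past 2-fold in both mutants (log2 ratios 1.14 and 1.1), but 192 of its 288 exon bases overlap *smk-1* on the other strand. *fip-5* had a log2 ratio of 0.46 in the *cec-4* mutant and -0.91 in the *met-2 set-25* mutant.

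The *fipr* genes divided by level. The abundant ones, *fipr-21*, *fipr-1* and *fipr-2*, differed by less than 2-fold from the control in every group. *fipr-21* was at 323 FPKM in the control, 315 in *dpy-27(RNAi)*, 318 in the *cec-4* mutant and 204 in the *met-2 set-25* mutant. *fipr-1* was at 274 FPKM in the control, 236 in *dpy-27(RNAi)*, 141 in the *cec-4* mutant and 202 in the *met-2 set-25* mutant, lowest in *cec-4* with a log2 ratio of -0.95.

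Among the low ones, 7 were lower past 2-fold in *met-2 set-25*, where 6.81% of all genes were lower. *fipr-4* was at 9.39 FPKM in the control, 5.48 in *dpy-27(RNAi)*, 12.5 in the *cec-4* mutant and 1.31 in the *met-2 set-25* mutant. *fipr-6* was at 5.82 FPKM in the control, 4.37 in *dpy-27(RNAi)*, 7.93 in the *cec-4* mutant and 0.868 in the *met-2 set-25* mutant. *fipr-3* was at 8.35 FPKM in the control, 4.13 in *dpy-27(RNAi)*, 7.17 in the *cec-4* mutant and 1.42 in the *met-2 set-25* mutant. All 3 had their lowest mean in *met-2 set-25* by a wide margin. Their log2 ratios there were -2.45, -2.21 and -2.21. *cec-4* did not pass 2-fold for any of these genes, with 0.40, 0.42 and -0.21.

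*fipr-10* was at 5.78 FPKM in the control, 3.25 in *dpy-27(RNAi)*, 5.69 in the *cec-4* mutant and 1.1 in the *met-2 set-25* mutant, again low in *met-2 set-25* (log2 ratio -1.97). *fipr-8* was at 6.5 FPKM in the control, 2.22 in *dpy-27(RNAi)*, 3.63 in the *cec-4* mutant and 1.55 in the *met-2 set-25* mutant, and it was the *fipr* gene past 2-fold in the group labelled *dpy-27(RNAi)*, with -1.37. *fipr-17* was at 1.68 FPKM in the control, 0.611 in *dpy-27(RNAi)*, 2.28 in the *cec-4* mutant and 0.394 in the *met-2 set-25* mutant, with an exon length of 144 bases. *fipr-15*, of 153 exon bases, was at 3.62 FPKM in the control, 2.7 in the group labelled *dpy-27(RNAi)* and 5.25 in the *cec-4* mutant and was listed at 0 in *met-2 set-25*, so no ratio is given, and 101 of its bases overlap an annotated pseudogene on the other strand. The authors shared out reads that fit several places, and how alike the *fipr* genes are in sequence was not examined here, so the values of single *fipr* genes may share reads.

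Other *fipr* genes were higher. *fipr-22* was at 2.7 FPKM in the control, 2.82 in *dpy-27(RNAi)*, 5.96 in the *cec-4* mutant and 7.05 in the *met-2 set-25* mutant. *fipr-20*, of 129 exon bases, was at 4.2 FPKM in the control, 6.51 in *dpy-27(RNAi)*, 9.44 in the *cec-4* mutant and 12.8 in the *met-2 set-25* mutant. Both were highest in *met-2 set-25*, with log2 ratios of 1.24 and 1.5, and past 2-fold in *cec-4* (1.01 and 1.08). *fipr-26* was at 2.42 FPKM in the control, 2.49 in *dpy-27(RNAi)*, 8.43 in the *cec-4* mutant and 1.35 in the *met-2 set-25* mutant, higher in *cec-4* alone. *fipr-23* was at 0.567 FPKM in the control, 0.864 in *dpy-27(RNAi)*, 2.42 in the *cec-4* mutant and 1.05 in the *met-2 set-25* mutant. *fipr-16*, of 150 exon bases, was at 4.83 FPKM in *cec-4* and listed at 0 in the other 3 groups. Whether that mean comes from a single library cannot be seen in group means.

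Members lie close together in the genome. With neighbours joined across gaps of up to 20 kb, 60 of the 92 genes fell into 21 clusters of 2 to 6 members, and 46 of these 60 genes passed 1 FPKM. V holds 34 members and X 17. In the caenacin cluster on V (1442342 to 1450183), the 4 members that passed had log2 ratios from -0.32 (*cnc-3*) to 1.75 (*cnc-4*) in *cec-4*. Of the 6 other genes above 1 FPKM within 20 kb of it, none was past 2-fold in *cec-4* and their median was 0.28. The *fipr* cluster on V (10220981 to 10239961) had 4 passing members, *fipr-4*, *fipr-7*, *fipr-6* and *fipr-8*, with log2 ratios from -2.45 to -0.98 in *met-2 set-25*. The 17 other genes around it had a median of -0.0016, with 2 higher and 2 lower past 2-fold.

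The saposin-like cluster on X (7314969 to 7320354) ran from -2.95 (*spp-4*) to 0.081 (*spp-6*) in *met-2 set-25*, and the 11 genes around it had a median of 0.18, with 1 lower past 2-fold. The X cluster of *fip-5*, *fipr-21* and *cnc-8* (10302741 to 10306951) lay below the control for its 3 members in *met-2 set-25*, from -1.08 to -0.66, and the median of the 12 genes around it was 0.19. In *cec-4*, the lysozyme row on IV ran from -2.0 (*lys-5*) to -0.16 (*lys-4*), beside a median of -0.24 over the 12 genes around it. Members of 1 cluster thus differed from each other, and in these clusters the genes around did not share the members' largest differences. Lysozyme, caenacin and saposin-like neighbours are members of gene families, and reads they may share were not examined here.

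**Figure D4:**
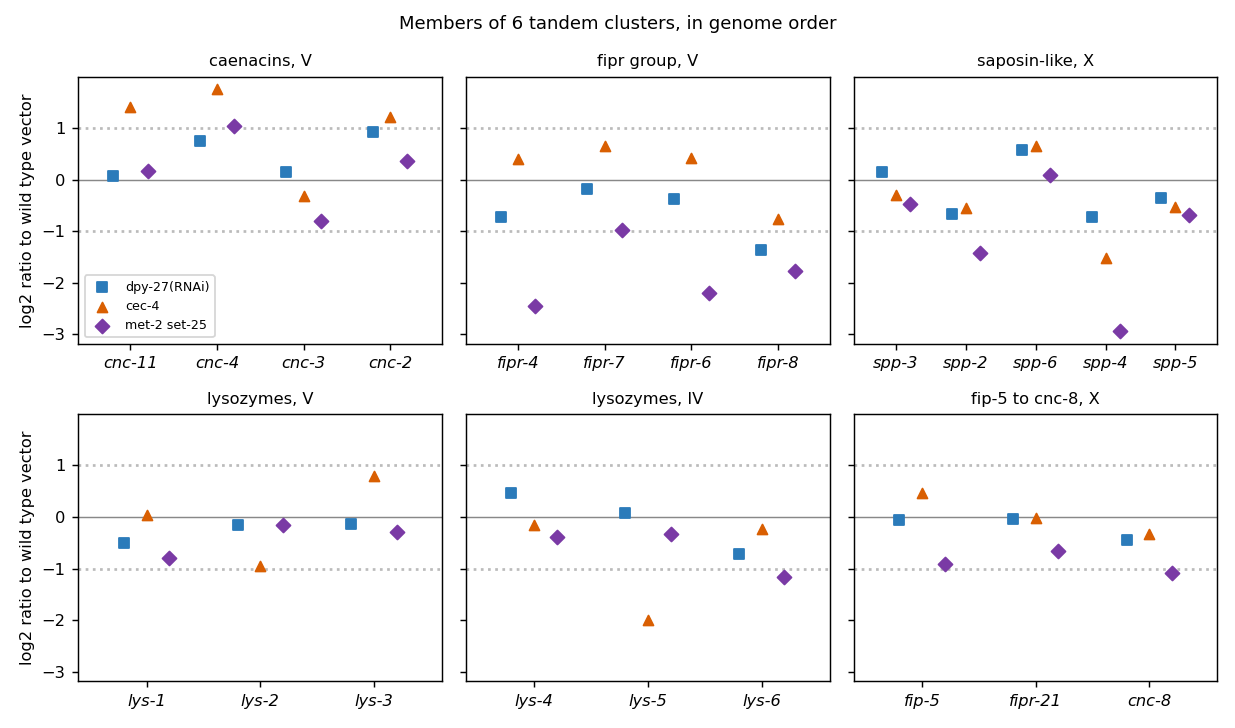
Log2 ratio to wild type vector (FPKM + 0.5) of the passing members of 6 tandem clusters in genome order, with 1 symbol per comparison and dotted lines at 2-fold. *lys-5* in *cec-4* (-2.0) and *spp-4* in *met-2 set-25* (-2.95) stand below their neighbours, and *cnc-11*, *cnc-4* and *cnc-2* in *cec-4* stand above *cnc-3*.

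The medians of the X-linked members lay below those of the X chromosome as a whole. The 14 that passed had a median log2 ratio of -0.083 in the group labelled *dpy-27(RNAi)*, -0.24 in the *cec-4* mutant and -0.67 in the *met-2 set-25* mutant. All 2763 X-linked genes above 1 FPKM had medians of 0.16, 0.24 and 0.15 in the same order. Of the 14, 5 were lower past 2-fold in *met-2 set-25* (35.7%, against 7.35% of all X-linked genes) and none was higher (against 11% of all X-linked genes). The 53 autosomal members had medians of 0.039, 0.42 and -0.28, so X-linked members lay below autosomal ones in each comparison. Over all autosomal genes the medians were 0.019, 0.078 and 0.028, below those of all X-linked genes. Of the 14, 7 are *spp* genes, whereas 16 of the 18 *fipr* genes that passed are autosomal, so the families weigh differently in these medians. Within *spp*, the 7 X-linked members had medians of -0.11, -0.29 and -0.57 in the same order of groups and the 10 autosomal ones -0.053, 0.045 and -0.41, with a smaller gap in each comparison than over all families. The other families hold 0 to 2 X-linked members that passed. Level and biotype were not matched in these comparisons. Of the 19 members above 100 FPKM, *spp-14*, *spp-5*, *ilys-5*, *spp-3*, *fipr-21*, *cnc-8* and *spp-2* are X-linked and the others autosomal. Protein-coding genes at that level had medians of -0.017, -0.13 and -0.23 in the same order of groups. The part of level in the gap between X-linked and autosomal members was not tested.

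The higher members in *cec-4* were mostly low ones, and this was less so of the lower members in *met-2 set-25*. Of the 31 members with a mean from 1 to 10 FPKM, 14 were higher past 2-fold in *cec-4* (45.2%, against 7.66% of protein-coding genes at that level) and 1 was lower (3.23%, against 3.97%). In *met-2 set-25*, 10 of the 31 were lower (32.3%, against 5.69%). The mean that sets the class includes the group compared, and *fipr-16*, *fipr-17* and *fipr-23* were above 1 FPKM by that mean only through *cec-4*. Of these, *fipr-17* was not past 2-fold in *cec-4* but counts among the lower members in *met-2 set-25*. *lys-9*, lower past 2-fold in both mutants, was above 1 FPKM by that mean only through the control. With classes set by the mean of the other 3 groups, a setting chosen after seeing the data, 12 of 28 members were higher in *cec-4* (42.9%, against 7.77% of protein-coding genes) and 11 of 32 were lower in *met-2 set-25* (34.4%, against 5.78%). Of the 19 members above 100 FPKM, *cec-4* had 1 higher (5.26%, against 3.74% of protein-coding genes at that level) and 1 lower (5.26%, against 2.84%). In *met-2 set-25*, 5 of the 19 were lower past 2-fold (26.3%, against 6.99% of protein-coding genes at that level) and 16 were below the control to any degree (84.2%, against 64.7%). Abundant genes as a whole were thus below the control in *met-2 set-25*, with a median of -0.23 for protein-coding genes against -0.57 for the members.

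**Figure D5:**
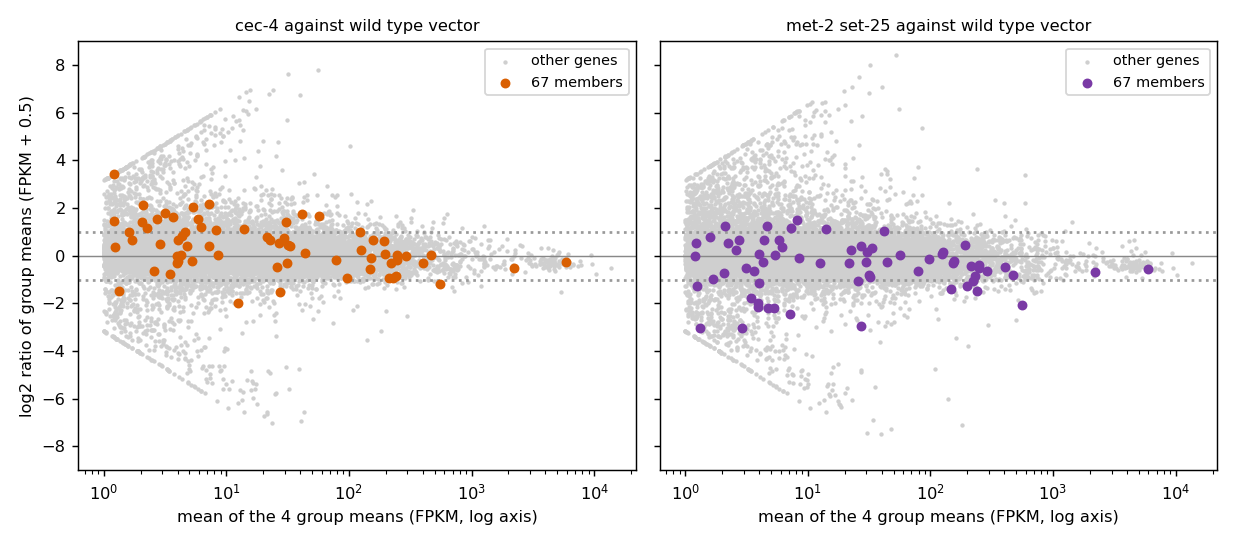
Log2 ratio to wild type vector (FPKM + 0.5) against the mean of the 4 group means (FPKM, log axis) for *cec-4* (left) and *met-2 set-25* (right), with the 67 members in color over all other genes above 1 FPKM in grey and dotted lines at 2-fold. Most members above the upper line in *cec-4* have means under 10 FPKM, whereas members below the lower line in *met-2 set-25* include 5 with means above 100 FPKM.

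*cec-4* and *met-2 set-25* were also compared directly, which leaves the control out, a comparison added after the values were seen. Of the 67 members, 23 were higher past 2-fold in *cec-4* than in *met-2 set-25* (34.3%, against 7.45% of all genes; at 1.5-fold, 40 against 14.2% of all genes) and 1, *lys-5*, was lower (1.49%, against 6.9% of all genes; at 1.5-fold, 3 against 10.8%). The 23 include *fipr-16* and *fipr-17*, which were above 1 FPKM by the mean of the 4 groups only through *cec-4*. The filter thus favoured higher calls for these genes. Leaving aside genes listed at 0, the largest ratios were those of *fipr-4* (2.85), *fipr-6* (2.62), *ilys-3* (2.27), *fipr-26* (2.27), *ilys-2* (2.14) and *spp-20* (2.03).

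Other peptide genes and the signalling genes upstream were read from fixed lists. Of 10 listed neuropeptide-like peptide genes (*nlp-24*, *nlp-25* and *nlp-27* to *nlp-34*), all above 1 FPKM, 7 were higher past 2-fold in *cec-4* and none lower, with a median of 1.15. Over all genes 9.01% were higher there, and over protein-coding genes 5.26%. Of the 7, *nlp-27*, *nlp-28*, *nlp-29*, *nlp-30*, *nlp-31* and *nlp-34* lie close together on V, and reads they may share were not examined here. The remaining gene, *nlp-32*, had a mean of only 1.23 FPKM. *nlp-29*, the best known epidermal peptide gene of wounding and fungal infection, was at 78.9 FPKM in the control, 133 in *dpy-27(RNAi)*, 228 in the *cec-4* mutant and 128 in the *met-2 set-25* mutant. *nlp-34* was at 55.8 FPKM in the control, 136 in *dpy-27(RNAi)*, 273 in the *cec-4* mutant and 139 in the *met-2 set-25* mutant. In *met-2 set-25*, 1 of the 10 was higher and 2 were lower, beside 9.86% and 6.81% of all genes. *nlp-24* was at 55.1 against 132 FPKM in the control and *nlp-25* at 8.43 against 27.9. Of 6 thaumatin-like genes, only *thn-2* passed 1 FPKM, at 7.12 FPKM in the control, 2.12 in *dpy-27(RNAi)*, 9.32 in the *cec-4* mutant and 0.477 in the *met-2 set-25* mutant.

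Signalling genes differed less. Of 15 genes of p38 MAP kinase and epidermal signalling, none passed 2-fold in *cec-4* or the group labelled *dpy-27(RNAi)* and 1 was higher in *met-2 set-25*, *vhp-1*, which encodes a MAP kinase phosphatase (115.4 FPKM in the control and 239 in *met-2 set-25*). All 15 lay above the control in both mutants, and their medians were 0.52 in the *cec-4* mutant and 0.43 in the *met-2 set-25* mutant. Over all genes, 57.5% lay above the control in the former and 53.5% in the latter. A rise of a whole list was not particular to these genes. All 6 pharyngeal, 5 neuronal and 3 coelomocyte markers described below also lay above the control in both mutants. Of the 6 intestinal markers, 4 lay below it in each mutant. Of the 5 epidermal markers that passed, 3 lay below it in the former and 1 in the latter. *sta-2*, a STAT-like factor for *nlp-29* induction, was at 22.9 FPKM in the control, 26.3 in *dpy-27(RNAi)*, 43.2 in the *cec-4* mutant and 45.3 in the *met-2 set-25* mutant. None of 7 DBL-1/TGF-beta genes passed 2-fold in any comparison. Of 12 transcription factors and receptors of intestinal defence, 1 was past 2-fold, in *cec-4*. It was *cebp-1*, a C/EBP factor, at 50.6 FPKM in the control, 87.8 in *dpy-27(RNAi)*, 123 in the *cec-4* mutant and 98.3 in the *met-2 set-25* mutant. *elt-2*, the GATA factor of the gut, was at 35.5 FPKM in the control, 31.9 in *dpy-27(RNAi)*, 29.5 in the *cec-4* mutant and 36 in the *met-2 set-25* mutant.

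Markers of the tissues that make these effectors moved in part with the groups. The 6 intestinal markers found summed to 2712 FPKM in the control, 2136 in the group labelled *dpy-27(RNAi)*, 1925 in the *cec-4* mutant and 1749 in the *met-2 set-25* mutant, most of it from the gut actin *act-5* and the gut filament gene *ifb-2*, and none of the 6 passed 2-fold. The 6 epidermal markers summed to 263, 226, 256 and 290.1 FPKM in the same order, with *dpy-7* at or under 1.25 FPKM. Pharyngeal markers summed to 968 FPKM in the control and between 1386 and 1426 in the other groups, and body muscle markers to 1620.2 against between 1928 and 2459. Neuronal markers summed to 712 FPKM in the control, 852 in the group labelled *dpy-27(RNAi)*, 1043 in the *cec-4* mutant and 837 in the *met-2 set-25* mutant, and the 3 coelomocyte markers to 9.57, 15.7, 15.1 and 15.8 FPKM. The germ line markers *glh-1* and *pgl-1* stood apart in *met-2 set-25*, at 168 and 25 FPKM against 25.5 and 3.45 FPKM in the control, while *nos-1* and *nos-2* stayed under 1.7 FPKM. The part of these markers in the results on the members was not tested.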

How the data were processed

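mRNA-seq of 13 libraries in 4 groups was used, grouped by their labels. The authors made non-stranded TruSeq libraries and sequenced them single-end. The authors trimmed reads with Trim Galore, aligned them to WS235 with TopHat2 2.0.13 (default settings, which keep a limited number of hits for each read) and computed expression with Cufflinks 2.2.1, sharing out reads with several hits by its rescue method. The authors deposited the resulting FPKM values, called RPKM in the paper, as 1 mean per group. With means alone, neither depth nor replicate error was known, and no test was made. The authors also counted reads with HTSeq 0.6.0 and compared groups with DESeq2 1.6.3 in R 3.2.3. That table holds the authors' own fold changes and p-values and was not used.

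Genes had to have a mean of the 4 groups above 1 FPKM. Ratios were log2 of (FPKM + 0.5), and a call was a ratio past 2-fold. Alternatives were pseudocounts of 0.1 and 1 FPKM, no filter, a minimum of 5 FPKM, a filter on the groups compared, median-centred ratios and a call at 1.5-fold. Members, positions, biotypes and merged exon lengths came from the deposited names and the Ensembl release 115 annotation of WBcel235, the assembly of WS235, and 92 of 92 members matched. Members past 2-fold in any comparison (at most 30, by the largest difference), the highest of each family and the 12 highest overall were named. Others were named as tandem neighbours, in small counts or after their values were seen (*abf-2*, *cnc-2*, *cnc-10*, *fip-4*, *spp-16* and the low *spp-12* among them). Members and gene lists were chosen with earlier results of these data known. No sequences are shown. Calculations used Python 3.11.15, numpy 2.4.6 and pandas 2.3.3, with figures by matplotlib 3.10.9, and the ratio and call steps were tested on simulated data.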

Additional observations from a re-analysis of the deposited data

How the results depend on the processing

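No paired analysis was possible because the files used hold 1 mean per group and no value per library, and for the same reason no replicate could be left out. Of 78 summary values under the alternatives, 64 stayed within 1.5-fold of the reported count or within 0.1 (log2) of the reported median, and 14 did not. Without a filter on low values, the median of the members in *cec-4* was 0.037 (0 over all genes). With a minimum of 5 FPKM, which left 44 members, it was 0.049 (0.060 over all genes), with 10 members higher in *cec-4*, 9 lower in *met-2 set-25*, and 2 higher and 0 lower in *dpy-27(RNAi)*. With ratios centred on the median of all genes, the median in *cec-4* was 0.29 and 7 members were lower there. Shares of all genes past 2-fold were not computed at either of these settings, so their counts stand without a background. At 1.5-fold, 12 members were higher (17.9%, against 12.5% of all genes) and 11 lower (16.4%, against 7.82%) in *dpy-27(RNAi)*. In *cec-4*, 10 were lower (14.9%, against 10.9%). In *met-2 set-25*, 10 were higher (14.9%, against 19.9%) and 27 lower (40.3%, against 15.4%). Without the 4 members under 200 exon bases, a setting chosen after seeing the data, the median in *cec-4* was 0.25, and without members listed at 0, also chosen then, no count or median moved beyond those limits. For the named members, 13 of 378 ratios under other pseudocounts or centring crossed the 2-fold line. Centring turned the sign of 6 of them, each of at most 0.064 in size as reported, and 0 past 2-fold. With 1 mean per group, how far single low genes vary between libraries was not measurable.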
